A study of Drosophila melanogaster with 5 samples.

Results

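The Hedgehog pathway carries a secreted signal that patterns the imaginal discs and parts of the brain of the Drosophila larva. The ligand Hedgehog binds its receptor Patched, which otherwise holds the membrane protein Smoothened inactive. Smoothened then acts through a cytoplasmic complex of the kinesin-like protein Costal, the kinase Fused and Suppressor of fused, and this decides whether the transcription factor Cubitus interruptus is processed into a repressor or stays an activator. In the eye disc the ligand comes from developing photoreceptors and drives the morphogenetic furrow forward, and photoreceptor axons carry it to the brain, where it induces lamina neurons. In disc compartments, engrailed and invected mark the posterior cells that make the ligand.

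The 9 pathway genes considered were hh, ptc, smo, ci, fu, Su(fu), cos, en and inv. They were taken by name, and 8 of the 9 had a probe set with 1 gene symbol, among 11982 genes named on the array. No probe set with 1 gene symbol was found for fu, and those with several symbols were not searched, so fu was not analysed here. Each of the 8 genes had 1 probe set, so the 8 probe sets stood against 18769 tested on the array.

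Drosophila 2.0 arrays of Affymetrix were used to measure transcripts of cephalic complexes, which are the larval brain lobes with their eye-antennal discs. There were 2 arrays from 3rd instar FRT82B larvae at day 0, which the series title calls wild type, and 3 arrays from 3rd instar larvae of the genotype lgl27S3/lglE2S31 at day 4. The latter carry a pair of null alleles of lethal giant larvae (lgl), a tumor suppressor gene of cell polarity, and stay larvae while their tissues overgrow. Each array held RNA pooled from 20 pairs of complexes according to the labels, whereas the methods of the study count complexes and not pairs. Genotype and day differed together, so that their parts in any difference cannot be told apart. The study's text gives its control larvae another name than FRT82B, and the label was kept here.

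Values are log2 expression after RMA (robust multi-array average), and differences are lgl day 4 minus FRT82B day 0. The log2 change, its standard error (SE) and its 95% interval came from limma, a linear model that shares information on spread between probe sets. A probe set was called changed at a Benjamini-Hochberg adjusted p under 0.05 over all probe sets and a log2 change of at least 1 in either direction. The labels name the arrays biological replicates, and no test here measures more than the spread between these 5.

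The mutated gene l(2)gl was lower on every array labelled lgl. It read 7.74 and 6.74 in FRT82B, against 2.44, 2.40 and 2.24 in lgl. The 2 FRT82B arrays differed from each other by at least 1 on 994 probe sets, against 84 to 110 between pairs of lgl arrays. FRT82B array 2 differed from the lgl arrays on 717 to 776 probe sets, fewer than from its own replicate, and FRT82B array 1 stood apart from them on 1550 to 1675. The 3′ minus 5′ difference of the actin control probe sets, a sign of RNA integrity, was 0.71 and 0.73 on the FRT82B arrays and 0.35 to 0.58 on the lgl arrays. That of eIF4a was 1.68 and 2.01 against 1.41 to 1.65, while GAPDH (1.21 and 1.37 against 1.18 to 1.36) and 18S rRNA (2.61 and 2.65 against 2.09 to 2.79) overlapped between groups. The neuron marker elav read between 8.83 and 10.29, and ey, listed as an eye-antennal disc marker, between 7.10 and 7.59. Whether the ey signal came from disc or brain cells was not tested. The gene gl, which is expressed behind the furrow of the eye disc, stayed between 3.23 and 4.10, near the array medians of 3.79 to 3.86, and the antennal gene ss stayed below them on all 5 arrays.

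None of the 8 measured pathway genes was called changed. limma called 0 of 8, with 0 at an unadjusted p under 0.05, while 1.05% of all probe sets were called and 18.4% had an unadjusted p under 0.05. Their log2 changes lay between -0.24 and 0.50 with a median of 0.09, beside a median of -0.03 over all 11982 genes. The members' median was 0.12 with FRT82B array 1 as the lone control and -0.04 with array 2, so that its sign turned with the control array. On 7 of the 8 genes the 95% interval lay wholly within 1 of 0 on the log2 scale, as it did on 82.7% of all probe sets. The exception was cos. These are levels in whole complexes, where fewer cells of a type and less RNA per cell cannot be told apart.

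**Figure D1:**
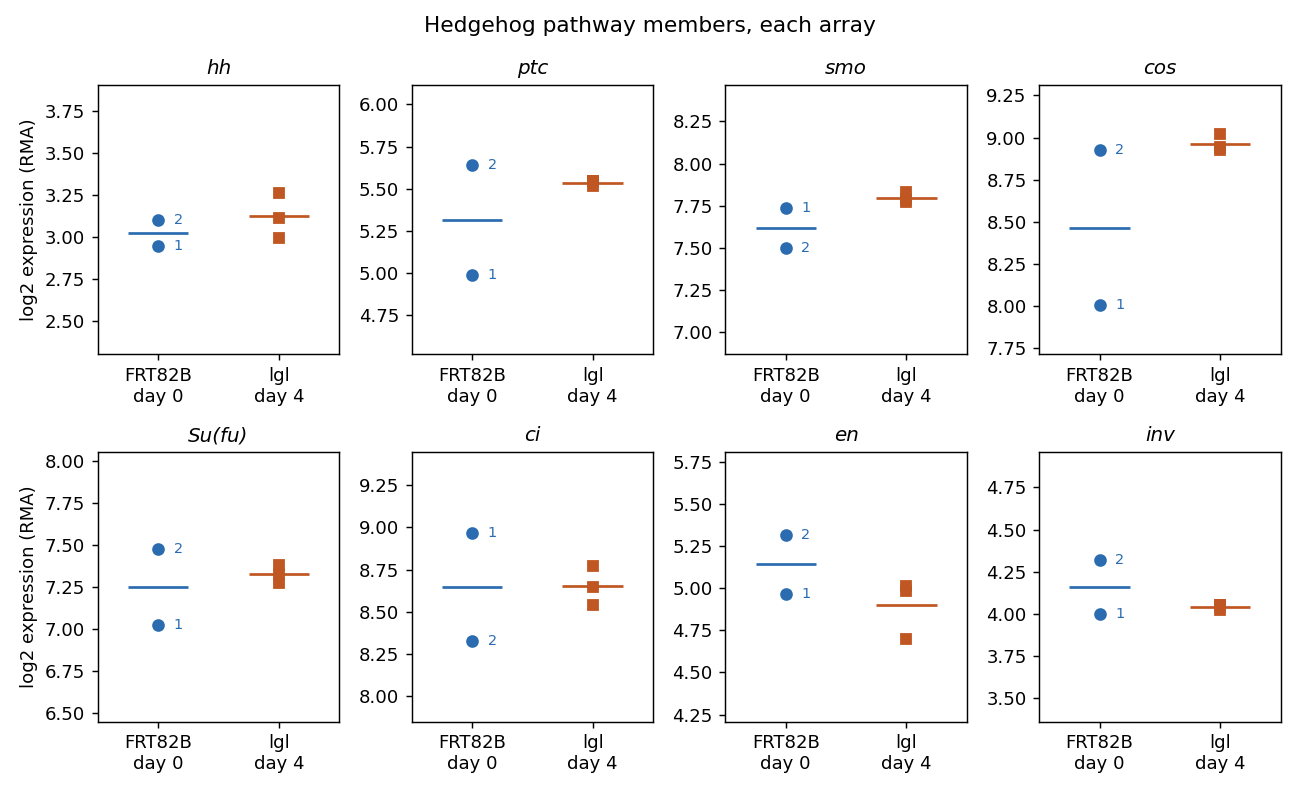
Log2 expression of the 8 measured Hedgehog pathway genes on each array, with blue circles for FRT82B day 0 (numbered by array), orange squares for lgl day 4 and a line at each group mean. Every panel spans the same log2 range, and the groups overlap for all genes except smo, whose lgl arrays read 7.77 to 7.83 above 7.74 and 7.50.

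The ligand gene hh read 2.95 and 3.10 in FRT82B, against 3.00, 3.26 and 3.12 in lgl. The groups overlapped, and every value lay below the median of its array. The log2 change was 0.10 (SE 0.11, 95% interval -0.18 to 0.39). A probe set this dim is close to the array's background, where RMA compresses differences, so that a change of hh in a small group of cells may not be detectable here.

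The receptor gene ptc, which is itself switched on by the pathway, read 4.99 and 5.64 in FRT82B, against 5.55, 5.55 and 5.51 in lgl. The lgl values lay between those of the FRT82B arrays and close to array 2. The log2 change was 0.22 (SE 0.20) with a 95% interval of -0.32 to 0.76 (limma adjusted p = 0.586). The direction rested on 1 control array, since the lgl mean was 0.55 above FRT82B array 1 and fell by 0.11 on the log2 scale against array 2.

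The signal transducer gene smo read 7.74 and 7.50 in FRT82B, against 7.79, 7.83 and 7.77 in lgl. It was the 1 gene of the 8 whose lgl arrays all lay outside the FRT82B range, as on 34.9% of all probe sets. The step was small, at 0.18 (SE 0.09, 95% interval -0.06 to 0.42, limma adjusted p = 0.398), or 1.13-fold.

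Among the cytoplasmic partners, cos showed the largest difference of the 8 genes. Costal is the kinesin-like scaffold that holds Cubitus interruptus in the cytoplasm. Its gene read 8.01 and 8.92 in FRT82B, against 8.94, 9.02 and 8.92 in lgl. FRT82B array 1 stood alone below the other 4 arrays, which lay within 0.10 of each other. The log2 change was 0.50 (SE 0.29, 95% interval -0.26 to 1.25, limma adjusted p = 0.429), so that a change beyond 1 lay within the interval for this gene.

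Suppressor of fused binds Cubitus interruptus and restrains it. Its gene Su(fu) read 7.03 and 7.47 in FRT82B, against 7.27, 7.32 and 7.38 in lgl. All lgl values fell between the FRT82B arrays, and the log2 change was 0.08 (SE 0.15, 95% interval -0.32 to 0.47).

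The transcription factor gene ci gave nearly the same group means, 8.65 ± 0.46 (SD, n = 2) in FRT82B and 8.65 ± 0.12 (SD, n = 3) in lgl. It read 8.97 and 8.32 in FRT82B, against 8.64, 8.77 and 8.54 in lgl. Here array 1 was the higher FRT82B array, and the lgl arrays again lay between the pair. The log2 change was 0.0041 (SE 0.22), with a 95% interval of -0.57 to 0.57.

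The posterior compartment genes en and inv, which are neighbouring and closely related homeobox genes, had the lowest log2 changes of the 8. en read 4.97 and 5.32 in FRT82B, against 4.99, 5.01 and 4.70 in lgl. inv read 4.00 and 4.32 in FRT82B, against 4.05, 4.02 and 4.05 in lgl. For both genes FRT82B array 2 was the highest of the 5 arrays, and array 1 lay within or beside the lgl values. The log2 change was -0.24 for en (SE 0.16, 95% interval -0.66 to 0.18) and -0.12 for inv (SE 0.11, 95% interval -0.41 to 0.17). Both are read by probe sets of the array's _s_at type, whose probes can match more than 1 transcript, and whether any of these probes match both genes was not tested.

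**Figure D2:**
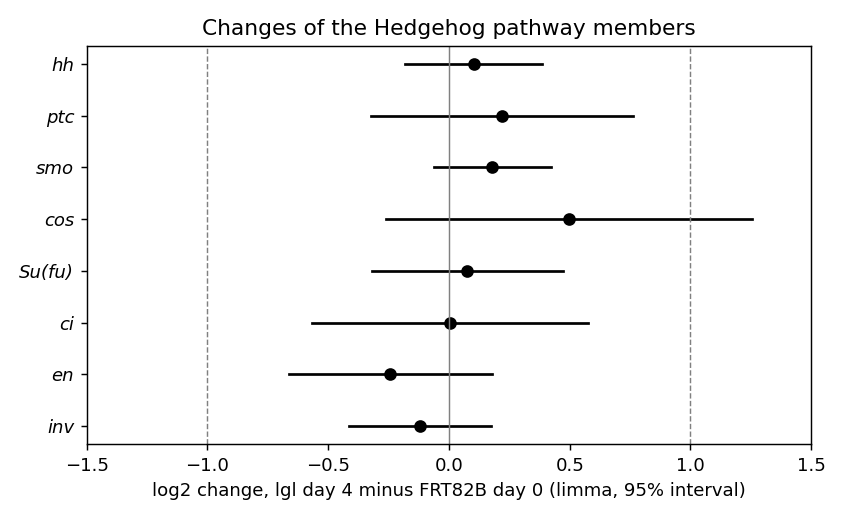
Log2 change of each Hedgehog pathway gene, lgl day 4 minus FRT82B day 0 (points), with limma's 95% interval (lines). Dashed lines mark a log2 change of -1 and 1, and every interval crosses 0, from the narrow one of smo (-0.06 to 0.42) to the wide one of cos (-0.26 to 1.25).

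The spread of the controls exceeded the group difference for every measured member. The FRT82B arrays differed by more than the group means did on 8 of 8 genes, against 60.6% of all probe sets. The gap ran from 0.15 for hh to 0.65 for ptc and ci and 0.92 for cos. Array 2 was the higher control on 6 of the 8 genes, and smo and ci were the others. The lgl arrays lay within 0.03 (inv) to 0.31 (en) of each other. Some values were exactly equal, as the arrays lgl 1 and lgl 2 held the same ptc value, lgl 1 and lgl 3 the same inv value, and lgl 3 and FRT82B 2 the same cos value. Such ties occurred on 36.1% of all probe sets. The SE of a gene with such ties rests on fewer distinct values.

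**Figure D3:**
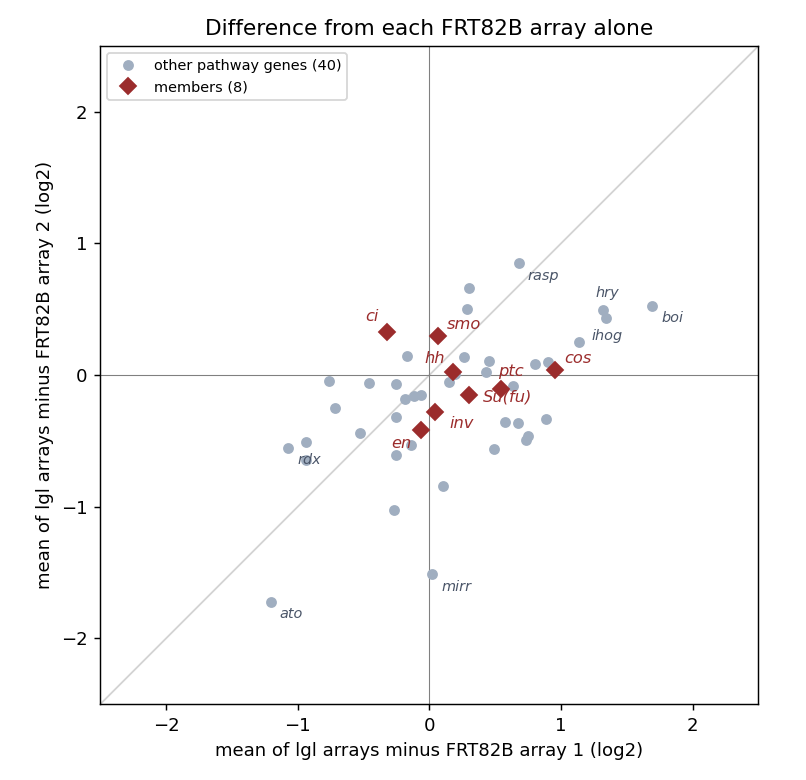
Mean of the lgl arrays minus FRT82B array 1 (x axis) and minus FRT82B array 2 (y axis), in log2 units, with the line of equal differences. Red diamonds are the 8 Hedgehog pathway genes, and grey circles are 40 further genes, the lamina precursor genes included. Both axes use the same lgl arrays. cos lies at 0.96 and 0.04, ptc at 0.55 and -0.11, and ci at -0.32 and 0.33.

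With a single control array the picture of these genes changed. Without FRT82B array 2, cos was higher in lgl by 0.96 (SE 0.06, limma adjusted p = 0.0168) and ptc by 0.55 (SE 0.03, limma adjusted p = 0.0171), both under the fold cut-off. In that fit 23.1% of all probe sets passed the adjusted p alone. Without FRT82B array 1, none of the 8 passed the adjusted p, cos was at 0.04 and ptc at -0.11, and 0.474% of all probe sets passed. The lowest adjusted p of the 8 was then that of inv, at -0.28 (adjusted p = 0.0666), followed by smo at 0.30 (adjusted p = 0.0749). A lone control array is assumed in these fits to vary like the lgl arrays, which the FRT82B arrays did not.

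Of 49 further genes, grouped by role, 40 were measured. 6 of the 40 are lamina precursor genes, of cells that respond to the ligand, and are counted with the pathway here. 1 of the 40 was called, ato, which was lower in lgl, beside 0.543% of all probe sets called higher and 0.506% called lower. 16 had an unadjusted p under 0.05, beside 18.4% of all probe sets. The lgl arrays lay above both FRT82B arrays on 9 genes and below both on 14, which occurred on 14.7% and 20.2% of all probe sets.

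Among the 40 genes, the co-receptor gene boi had the highest log2 change. Interference hedgehog (ihog) and brother of ihog (boi) are a pair of related membrane proteins that bind the ligand together with Patched. ihog read 6.34 and 7.24 in FRT82B, against 7.58, 7.87 and 7.57 in lgl. boi read 4.71 and 5.88 in FRT82B, against 6.58, 6.37 and 6.26 in lgl. Both were above the FRT82B range on every lgl array, and neither passed the test. The log2 difference was 0.89 for ihog (SE 0.30, limma adjusted p = 0.233) and 1.11 for boi (SE 0.37, limma adjusted p = 0.228). Without FRT82B array 2 both were called, at 1.34 and 1.69, along with 6.96% of all probe sets. Without array 1 they were at 0.43 and 0.53 and were not called, where 0.378% of all probe sets were.

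Gprk1, of the receptor kinase family whose members phosphorylate Smoothened, was lower on every lgl array. It read 9.56 and 9.47 in FRT82B, against 9.09, 9.02 and 8.98 in lgl, with a log2 change of -0.48 (SE 0.07, limma adjusted p = 0.0584). Its relative Gprk2 had a log2 change of -0.04 with overlapping arrays. Over the 5 genes of this group 0 were called and 4 had an unadjusted p under 0.05, beside 1.05% and 18.4% of all probe sets. The median was -0.04. That median lay between opposite values, 0.49 with FRT82B array 1 as the lone control and -0.32 with array 2.

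Genes that make, release or spread the ligand were not called either. rasp encodes the acyltransferase that adds palmitate to Hedgehog, and its groups did not overlap. It read 6.28 and 6.11 in FRT82B, against 6.93, 7.08 and 6.86 in lgl. The log2 change of 0.76 (SE 0.10, limma adjusted p = 0.0518) missed both parts of the rule, the fold cut-off of 1 and the adjusted p. It was 0.68 with FRT82B array 1 as the lone control and 0.85 with array 2. The glypican gene dlp, whose product helps Hedgehog reach responding cells, was lower on every lgl array (-0.43, SE 0.12), and the heparan sulphate polymerase gene ttv was higher (0.28, SE 0.12). Neither passed the test (limma adjusted p = 0.182 and 0.345), and with single arrays left out they ran from -0.61 to -0.25 for dlp and from 0.10 to 0.45 for ttv. The 6 measured genes of this group had a median of 0.24. Of them 0 were called and 2 had an unadjusted p under 0.05, beside 1.05% and 18.4% of all probe sets.

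Of 14 kinases, phosphatases and ubiquitin ligases that act on Cubitus interruptus or Smoothened, 0 were called and 11 had a log2 change below 0. Their median was -0.22, and 5 had an unadjusted p under 0.05, beside 18.4% of all probe sets, of which 1.05% were called. The lgl arrays lay below both FRT82B arrays on 8 genes and above both on 0, beside 20.2% and 14.7% of all probe sets. roadkill (rdx), whose product brings Cubitus interruptus to the Cul3 ubiquitin ligase and which the pathway itself switches on, read 7.82 and 7.30 in FRT82B, against 6.81, 6.77 and 6.66 in lgl. Its log2 change was -0.81 (SE 0.17, limma adjusted p = 0.114), and it was called without FRT82B array 2 (-1.07). Another, dim probe set of rdx stayed at 3.63 to 3.65 on all arrays. CkIalpha, a kinase that marks Cubitus interruptus for processing, had a log2 change of -0.79 (SE 0.21). Roc1a, a ring-finger subunit of cullin ligases, had one of -0.72 (SE 0.15).

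**Figure D4:**
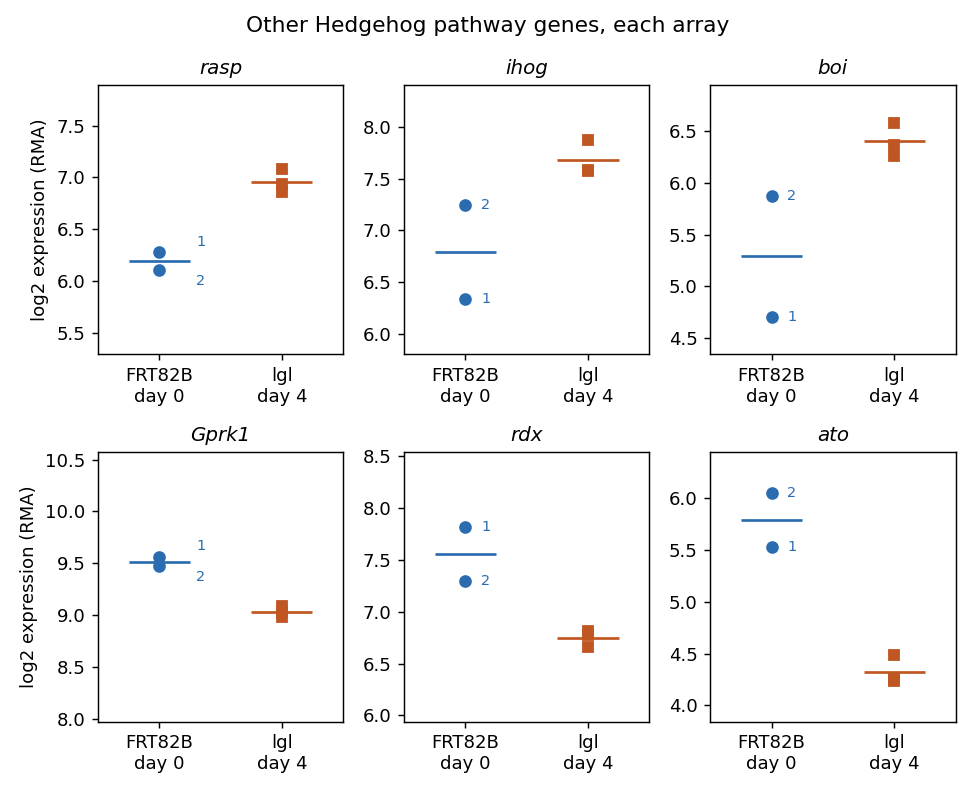
Log2 expression of 6 further genes of the Hedgehog pathway on each array, with blue circles for FRT82B day 0 (numbered by array), orange squares for lgl day 4 and a line at each group mean. Panels span the same log2 range. The 6 were picked from genes whose groups do not overlap, so that this feature of the panels follows from the choice. Only ato was called changed, from 5.53 and 6.05 to between 4.24 and 4.48.

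Genes that Hedgehog signalling is known to switch on in discs lay on both sides of 0. Of 10 measured, 6 had a log2 change above 0 and 4 below. The targets wg and vn were listed too, but had no probe set with 1 gene symbol and were not measured. In this list 1 was called and 6 had an unadjusted p under 0.05, beside 1.05% and 18.4% of all probe sets. Their median was 0.27, or 0.30 with FRT82B array 1 as the lone control and -0.13 with array 2. rdx is counted here too. The proneural gene ato, which selects the founding photoreceptors, read 5.53 and 6.05 in FRT82B, against 4.25, 4.48 and 4.24 in lgl. It was lower on every lgl array, with a log2 change of -1.47 (SE 0.19, limma adjusted p = 0.0499), or 2.76-fold. The call was lost when FRT82B array 1 (adjusted p = 0.0516) or any lgl array (adjusted p from 0.202 to 0.253) was left out, while the log2 change stayed between -1.72 and -1.21. It was also lost with array weights (-1.45, limma adjusted p = 0.169) and with the replicate number as a block (-1.42, limma adjusted p = 0.314). With each lgl array left out, and with the block, 0 of 18769 probe sets were called. With array weights 12 were, against 197 in the main fit, so that in these settings the loss was not particular to ato. hairy (listed as hry), expressed ahead of the furrow, read 6.88 and 7.71 in FRT82B, against 8.13, 8.26 and 8.21 in lgl, a log2 change of 0.91 (SE 0.26, limma adjusted p = 0.179). The cell cycle gene CycE had a log2 change of 0.69 (SE 0.28) and was called, like hry, only when FRT82B array 2 was left out. With single arrays left out, hry ran from 0.49 to 1.32 and CycE from 0.25 to 1.14.

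The targets dpp and kn belong to the same list, and they are described after their values were seen. dpp, the BMP ligand of the furrow and the compartment border, read 5.04 and 4.69 in FRT82B, against 5.15, 5.46 and 5.43 in lgl. kn, a transcription factor gene, read 7.07 and 7.82 against 6.74, 6.84 and 6.81. They stood on opposite sides of the controls, at 0.48 (SE 0.16, limma adjusted p = 0.225) and -0.65 (SE 0.24, limma adjusted p = 0.259). Neither passed. With single arrays left out, dpp ran from 0.30 to 0.66 and kn from -1.02 to -0.27.

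Genes of the lamina precursors, the brain cells that Hedgehog from photoreceptor axons induces, overlapped between groups on 6 of 6 measured genes. limma called 0 of them and 0 had an unadjusted p under 0.05, where 34.9% of all probe sets did not overlap, 1.05% were called and 18.4% had such a p. Their median was 0.17, or 0.60 against FRT82B array 1 and -0.34 against array 2, and array 2 was the higher control on all 6.

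Markers of the cell types that the complexes could hold were summed on each array. Eye-antennal disc markers summed to 800 and 779 on the FRT82B arrays and 987 to 1126 on the lgl arrays after leaving the log2 scale. On their brightest probe sets 0 of 8 were called and 7 of 8 overlapped. Over all probe sets 1.05% were called and 34.9% did not overlap. The exception was toy, at 8.97 and 8.22 against 9.39, 9.37 and 9.19. It was the brightest of them on every array, so that the largest part of the sum came from toy. As for ey, whether the toy signal came from disc or brain cells was not tested. A dimmer probe set of Dll was also higher on every lgl array (log2 change 1.27, SE 0.28, limma adjusted p = 0.119). The genes eya and so of this list are counted among the lamina precursor genes too. Neuroblast markers summed to 1439 and 1510 against 3801 to 4264, with 1 of 4 called, mira. On 3 of the 4 every lgl array was higher, whereas ase overlapped between groups (9.07 and 8.38 against 9.04, 8.86 and 8.72). Ring gland markers summed to 817 and 755 against 55.7 to 74.6, with 3 of 5 called, all lower. Haemocyte markers summed to 268 and 226 against 313 to 642, trachea markers to 67.2 and 243 against 671 to 787 and fat body markers to 169 and 360 against 591 to 4148, with 0 called in each. Of the haemocyte markers 4 of 6 were higher on every lgl array, whereas Hml and He overlapped between groups, He with a log2 change of -0.08. The tracheal sum was carried by serp and verm, whereas btl lay below the array median on all 5 arrays, with a log2 change of -0.18. The fat body sum was carried by Lsp2, whereas Fbp1 overlapped between groups (4.08 and 6.51 against 8.53, 5.54 and 5.34). Glia markers summed to 2869 and 1724 against 1506 to 1607, and muscle markers to 238 and 99.5 against 55.7 to 68.4. The glial sum was carried by nrv2 and alrm, whereas the glial gene repo was higher on every lgl array, at 0.78 (SE 0.26, limma adjusted p = 0.227). The muscle sum was carried by Mp20, whereas Mlc2 and up overlapped between groups. The sums of neuron markers (850 and 1481 against 627 to 912) and salivary gland markers (88.9 and 345 against 63.0 to 116) overlapped. The neuron sum was carried by elav, whereas nSyb was lower on every lgl array (log2 change -0.68, SE 0.16, limma adjusted p = 0.140). All 3 measured neuron markers had a log2 change below 0. The part of these cells in the values of ato, ihog, boi and the other pathway genes was not tested.

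The genes whose 5 array values ran closest to those of a pathway gene were found by the distance between profiles, each centred on its own mean, over 13639 other probe sets with 1 symbol. For ptc these were CG2926 (distance 0.021), CG3589 (0.026) and ohgt (0.044), which shared the low value of FRT82B array 1. For ci they were Kebab (0.054), Hydr2 (0.069) and alph (0.074), with FRT82B array 1 the highest of the 5. For hh they were CG15130 (0.049), CG34375 (0.075) and Hsp60A (0.082). All profiles share the same 5 arrays, and such likeness is a description of them.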

How the data were processed

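mRNA of 5 samples was hybridised to Affymetrix Drosophila 2.0 arrays. The authors corrected the background and normalised with RMA, and deposited log2 values, 1 per probe set and array. Their software versions are not given in the sources used here. Since RMA gives the arrays nearly equal distributions, a general shift of transcripts cannot be measured. The number of arrays limits the precision.

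Control probe sets (183) were left out. Of 18769 probe sets, 13647 had 1 gene symbol, 402 several and 4720 none. 13544 were matched to a current gene through gene identifiers. A gene was read from its brightest probe set. Groups came from the sample titles. Tests used limma 3.58.1 (lmFit, eBayes) in R 4.3.3 on all 5 arrays, after the study's methods. They were also run on simulated data with equal spread in both groups, which the arrays here did not have. The members and lists were chosen with earlier results of these data known. Genes named were all members, every called gene of a further list and up to 3 others without overlap, the 3 nearest profiles of hh, ptc and ci, and l(2)gl. Outside this rule, Gprk2, dpp, kn, ey, gl, ss, eya, so, Dll, Hml, verm, nrv2 and up were named after their values were seen. The rule also named the lowest and highest log2 change of each marker list. In place of these the summed level was given, except for toy, mira, ase, He, alrm, repo and serp. Further exceptions were btl, Mp20, Mlc2, Fbp1, Lsp2, elav and nSyb. Alternatives were a repeated quantile normalisation, centring on medians, a filter for brighter probe sets, a robust prior with an intensity trend, weights for arrays, a replicate block, each array left out, other fold cut-offs, and averaging over the probe sets of a gene.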

Additional observations from a re-analysis of the deposited data

How the results depend on the processing

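The count of called Hedgehog pathway members was 0 of 8 in the main fit and under all alternatives run (0 of 7 with brighter probe sets, which left out hh). Of 95 member values under alternatives, 90 kept their sign and 5 turned. The filter for brighter probe sets, the robust prior with a trend and the averaging left each member's log2 change as it was. Those settings could not turn a sign, and the replicate block gave the same changes as leaving out lgl array 3. The count of 90 therefore overstates how many separate checks were made. ci turned to -0.32 without FRT82B array 2 and to -0.06 without lgl array 2, Su(fu) to -0.15 and ptc to -0.11 without FRT82B array 1, and inv to 0.039 without FRT82B array 2. Over single arrays left out, the log2 change ranged from -0.32 to 0.33 for ci, from -0.15 to 0.30 for Su(fu), from -0.11 to 0.55 for ptc, from -0.28 to 0.039 for inv, from 0.04 to 0.96 for cos, from -0.42 to -0.07 for en, from 0.06 to 0.30 for smo and from 0.03 to 0.18 for hh. The further pathway genes called then ranged from 0 to 6, and all probe sets called from 0 to 1306, against 1 and 197. The 6 came without FRT82B array 2 and were CycE, hry, ihog, rdx, boi and ato. limma called 0 further genes with array weights, with the replicate number as a block and at a log2 change of at least 1.5. Of these 40 genes, 13 had an unadjusted p under 0.05 with array weights and 8 with the block. All probe sets called were 395 of 9384 with brighter probe sets, 12 with array weights, 305 with no fold cut-off, 114 at the higher cut-off and 0 with the replicate block, where 2074 had an unadjusted p under 0.05. In the block, lgl array 3 shares its number with no control. Arrays of the same number shared little else: their deviations from the group means correlated at 0.03 for number 1 and 0.07 for number 2. The causes were not tested. Members near the background, hh above all, are limited by their dim signal.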
